A study of Mus musculus with 41 samples.

Results

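The 48 genes described here are interferon-stimulated genes, the genes that mammalian cells switch on when interferon binds its receptors. They were selected by name from a table of 27197 mouse genes, because the NC mesothelioma lines JB84 and JB93 stood far above the other lines for genes of this kind. The difference between these lines was therefore part of the selection and is given below as a description without a test. All 48 genes were found in the RNA count table. They were placed in 5 classes, 5 nucleic acid sensors, 6 members of the OAS family, 11 regulators, 16 effectors, and 10 GTPases.

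The series holds 41 samples from mouse models of malignant mesothelioma, of which 15 RNA libraries were used. The BNC lines (JB81, JB91, and JB97) carry the genotype Bap1-/-;Nf2-/-;Cdkn2ab-/-, and the NC lines (JB84, JB87, and JB93) carry Nf2-/-;Cdkn2ab-/- with functional Bap1. Loss of Nf2 and Cdkn2ab is thus shared by both groups, and all mice lacked Ink4a and Ink4b from the germline. The other 9 libraries came from tumors. The labels count 5 BNC and 4 NC tumors, but do not tell which RNA column belongs to which genotype, so the tumors are given as 1 set of libraries with lowest, median, and highest values and no test. Tumors were started in young adult mice of mixed background by intrathoracic injection of an adenovirus in which the CMV promoter drives Cre. That promoter is not specific for mesothelial cells. The mice drank cyclosporine A around the time of infection. The lines were grown from pieces of such tumors and used at early passage, without drug or interferon treatment named in the labels. Nothing in the labels says that the lines of a group came from separate mice, so the p-values below measure only the spread between these lines.

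Type I interferons bind IFNAR1 and IFNAR2 and act on genes through a promoter element called the ISRE. Interferon-γ binds IFNGR1 and IFNGR2 and acts mainly through a different element called GAS. The products sense foreign RNA or DNA (RIG-I, MDA5, ZBP1), degrade or sequester viral RNA (OAS and IFIT proteins), or attack membranes of vacuoles that hold pathogens (GBP and IRG GTPases).

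Total counts were between 12377675 and 23936922 in the lines and between 8158740 and 21851974 in the tumors. A count of 3 reads, taken as the floor of detection, equals between 0.127 and 0.229 CPM (counts scaled to a common library size) in the lines and up to 0.773 CPM in tumor B1. Several libraries stood apart. In tumor B1 the 20 most abundant genes took 60.1% of the counts, against 6.44 to 20.6% elsewhere, so the tumor medians were also computed without it. Tumor B2 held 29911 CPM of the airway gene Scgb1a1, and tumor B45 held 12023 CPM of the skeletal muscle myosin gene Myh4. JB81 and JB91 differed more than 2-fold in 6 of 10705 genes with at least 10 counts in every line, and JB84 and JB93 in 9. Other pairs of lines of the same genotype differed in 1114 to 2123 of these genes. JB81 and JB91, and likewise JB84 and JB93, were thus almost alike, although the counts of both pairs differed by more than sampling noise. Unless these pairs are summed, the fits below count each line on its own, so their standard errors and p-values may be too small. Bap1, the gene deleted in BNC, stood at 41.4, 42.7, and 37.5 CPM in JB81, JB91, and JB97 and at 57.0, 56.2, and 61.0 CPM in JB84, JB87, and JB93. Every NC line was above every BNC line, and a count over the whole gene does not separate reads inside and outside the deleted exons.

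Promoters show what many of these genes share beyond their names. RefSeq promoter windows on GRCm38.p6, from 250 bases before to 50 bases after the start of transcription, were at hand for 35 of the 48 genes. The core of the ISRE, spelled GAAANNGAAA and searched on both strands, was present in the windows of 19 of these 35 genes (54.3%), against 3.99% of all 27025 genes with a window. The GAS spelling TTCNNNGAA, which reads the same on both strands, was present in 9 of the 35 (25.7%), against 9.55% of all genes. By class the ISRE was found in 3 of 3 sensors, 2 of 4 OAS genes, 3 of 8 regulators, 5 of 13 effectors, and 6 of 7 GTPases. A match describes the letters and does not show that a factor was bound there. The 160 bases before the start are printed, of the 2 genes of each class with a window and the highest level per length in JB84 and JB93, for those that held an ISRE there, with the ISRE letters in capitals, 5′ to 3′ on the strand of the gene.
Oas3: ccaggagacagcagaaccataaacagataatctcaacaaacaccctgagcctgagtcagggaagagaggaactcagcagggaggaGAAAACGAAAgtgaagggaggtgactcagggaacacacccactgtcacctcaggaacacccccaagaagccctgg
Isg15: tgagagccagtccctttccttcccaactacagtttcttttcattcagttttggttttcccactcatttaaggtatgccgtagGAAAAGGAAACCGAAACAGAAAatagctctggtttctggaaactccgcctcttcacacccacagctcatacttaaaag
Bst2: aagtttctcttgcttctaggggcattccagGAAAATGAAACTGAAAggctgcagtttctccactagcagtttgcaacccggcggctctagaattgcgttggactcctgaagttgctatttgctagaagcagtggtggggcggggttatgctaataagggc
Ifit3: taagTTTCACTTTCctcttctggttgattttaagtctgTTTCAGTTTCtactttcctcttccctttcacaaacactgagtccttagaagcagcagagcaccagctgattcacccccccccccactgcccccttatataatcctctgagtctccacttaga
Igtp: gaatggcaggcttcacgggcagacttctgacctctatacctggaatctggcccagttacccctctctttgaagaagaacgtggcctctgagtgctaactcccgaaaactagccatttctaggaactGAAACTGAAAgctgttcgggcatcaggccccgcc
Irgm1: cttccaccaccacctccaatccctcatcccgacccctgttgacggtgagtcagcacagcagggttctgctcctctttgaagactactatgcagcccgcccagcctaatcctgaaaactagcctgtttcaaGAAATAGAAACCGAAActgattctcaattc

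The table lists these genes as ENSMUSG00000032661 (Oas3), ENSMUSG00000035692 (Isg15), ENSMUSG00000046718 (Bst2), ENSMUSG00000074896 (Ifit3), ENSMUSG00000078853 (Igtp), and ENSMUSG00000046879 (Irgm1). The windows lie at chr5:120777660-120777819 (minus strand) for Oas3, chr4:156200819-156200978 (minus) for Isg15, and chr8:71537473-71537632 (minus) for Bst2. They lie at chr19:34583369-34583528 (plus) for Ifit3, chr11:58199396-58199555 (plus) for Igtp, and chr11:48871421-48871580 (minus) for Irgm1. Isg15 carries 3 overlapping matches in a single run of capitals, Bst2 and Irgm1 carry 2 overlapping matches each, and Ifit3 carries 2 separate matches on the opposite strand. Eif2ak2 and Ddx58 also met this rule, but their match lay past the start of transcription, and the windows of Oasl2 and Ifi35 held no match.

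Across the lines the 48 genes formed a high pair, an intermediate line, and a low group. Levels were normalized by TMM over all 15 libraries, and a score was taken for each library as the mean of log2(CPM + 1) over the 48 genes. The score was 1.41, 1.46, and 1.55 in JB81, JB91, and JB97, 2.54 in JB87, and 6.08 and 6.12 in JB84 and JB93. JB84 and JB93 were above the other 4 lines in 48 of 48 genes, a pattern that 29.2% of the 15583 genes with more than 3 counts in a line showed. Their mean exceeded the highest other line by more than 2 on the log2(CPM + 1) scale in 42 of the 48, against 1.19% of the 15583 genes. These counts follow from how the genes were chosen. The exceptions were Ifi35, Ifit2, Isg20, Mx1, Irgm1, and Ifi47, with differences between 0.55 and 1.99. The genes together took 0.522 and 0.531% of all counts in JB84 and JB93, 0.0494% in JB87, and between 0.0260 and 0.0292% in the BNC lines.

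**Figure D1:**
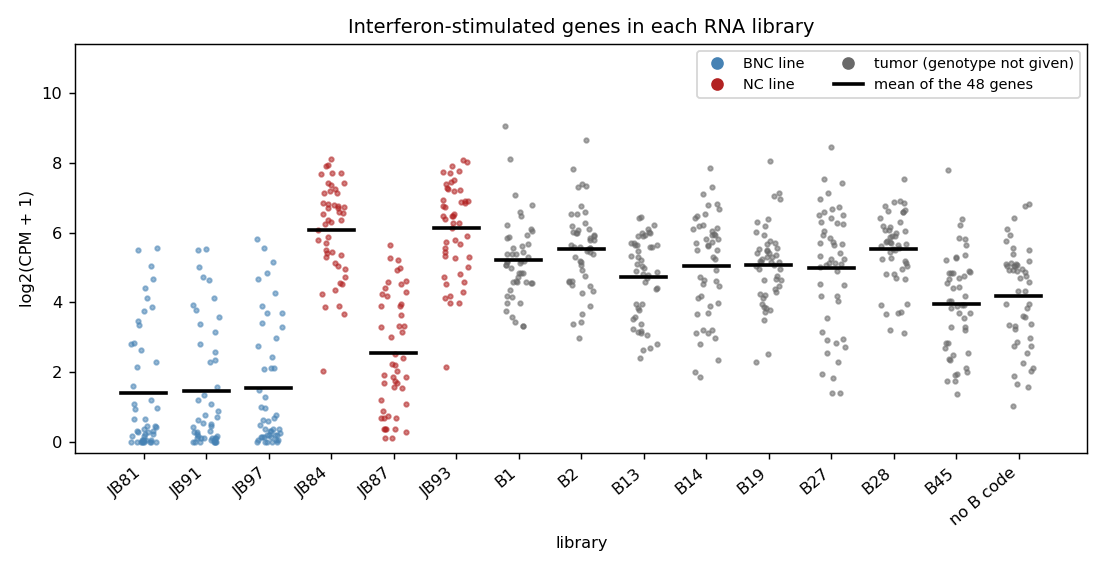
Level of each of the 48 interferon-stimulated genes in the 15 RNA libraries, on the log2(CPM + 1) scale, with 1 point per gene, shifted sideways at random for visibility, and a black bar at the mean. The bars of the BNC lines lie between 1.41 and 1.55, that of JB87 at 2.54, those of JB84 and JB93 at 6.08 and 6.12, and those of the tumors between 3.96 and 5.53.

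JB87 lay between the groups. It was above every BNC line in 39 of 48 genes, against 29.8% of the 15583 genes, so that in these 39 all NC lines were above all BNC lines (18.1% of the 15583 genes), and the median difference from the highest BNC line was 0.62 on the log2(CPM + 1) scale. The median was 2.05 for the OAS family, 1.20 for the regulators, 0.50 for the GTPases, 0.29 for the effectors, and 0.14 for the sensors. The library names start with a number that JB81, JB84, and JB87 share and another that JB91, JB97, and JB93 share, and the difference was also taken within these sets. In the former, the median over the 48 genes was 4.64 for JB84 against JB81 and 0.97 for JB87 against JB81. In the latter, it was 4.48 for JB93 against the mean of JB91 and JB97. In a fit of all genes in the 6 lines (edgeR quasi-likelihood test), 41 of the 48 genes had enough counts to be fitted, and all 41 had a lower fitted level in BNC, with a median log2 fold change of -5.11 against -0.0023 for all tested genes. None of the 41 passed an adjusted p of 0.01 with a 2-fold change, the study's threshold, which 1.10% of all 12376 tested genes passed and 0.654% passed as lower in BNC. With the threshold at 0.05, 28 passed (7.34% of all tested genes were lower in BNC at that threshold), and 39 had an unadjusted p under 0.05 (19.7%). DESeq2, the tool that the study itself used, placed 39 past the study's threshold (9.13%). Without JB87, edgeR placed 44 of 48, all lower in BNC (9.76% of all genes in that fit were called lower). As the contrast chose the genes, nothing is read from these counts. In 10 of the genes every BNC line had at most 3 counts.

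**Figure D2:**
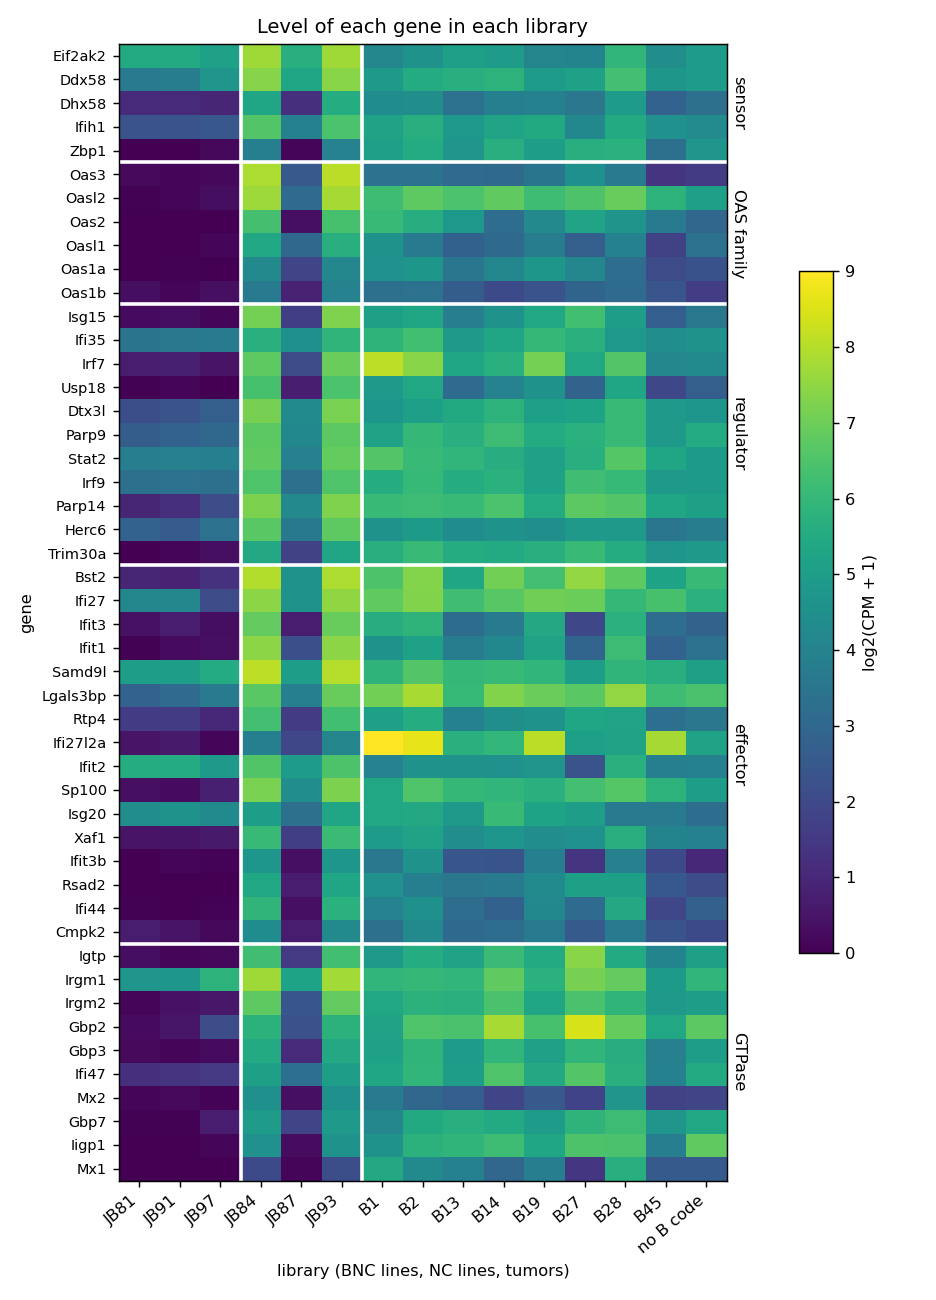
Level of each gene (rows, grouped by class and ordered by its level per length in JB84 and JB93) in each library (columns, with the BNC lines, the NC lines, and the tumors separated by white lines), colored by log2(CPM + 1) from 0 to 9. The columns of JB84 and JB93 are brighter than those of the other lines in every row, with Mx1 as their darkest cell, most rows are dark in the BNC lines apart from a few such as Eif2ak2 and Ifit2, and the tumors differ by gene and by tumor.

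Among the sensors, the RNA-dependent kinase gene Eif2ak2 (PKR) and the RIG-I gene Ddx58 were also expressed in the low lines. Eif2ak2 stood at 44.1, 44.7, and 34.6 CPM in JB81, JB91, and JB97, at 49.4 CPM in JB87, and at 208 and 209 CPM in JB84 and JB93. In the tumors it ranged from 15.5 to 59.1 CPM with a median of 23.6, and only 1 of 9 tumors was above the highest BNC line. That tumor was B28, the other tumors were all below the lowest BNC line, and no tumor came near JB84 or JB93. Ddx58 stood at 12.4, 12.7, and 24.7 CPM in the BNC lines, at 37.9 CPM in JB87, and at 164 and 166 CPM in JB84 and JB93, and its tumor values ran from 25.9 over a median of 34.3 to 77.5 CPM. Ifih1, which encodes the RNA sensor MDA5, stood at 3.94, 4.06, and 4.42 CPM in the BNC lines, at 14.4 CPM in JB87, and at 94.4 and 87.2 CPM in JB84 and JB93, with tumors from 17.3 over 35.0 to 49.2 CPM. For both genes every tumor lay above every BNC line and below both high lines. Dhx58 encodes LGP2, a helicase that tunes the other RNA sensors. It stood at 1.14, 1.11, and 0.964 CPM in the BNC lines, at 1.30 CPM in JB87, and at 38.5 and 46.4 CPM in JB84 and JB93, the largest difference of the class (4.23 against JB87, log2 scale). Its tumor values ran from 6.19 over 13.8 to 29.9 CPM. The DNA and RNA sensor gene Zbp1, singled out after its values were seen, was the sensor whose tumor median (32.7 CPM) exceeded JB84 and JB93 (13.8 and 14.8 CPM).

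The OAS family, named for synthetases whose product activates RNase L, was nearly silent in the BNC lines. Oas3 had 0.170, 0.0856, and 0.152 CPM in JB81, JB91, and JB97, 4.73 CPM in JB87, and 239 and 269 CPM in JB84 and JB93. Its tumor values ran from 1.61 over 9.79 to 21.7 CPM, so every tumor was far below the high lines, and the median tumor level was 4.56 below the mean of JB84 and JB93 on the log2(CPM + 1) scale, the largest such deficit of the 48 genes. Oasl2, an OAS-like gene, behaved differently in the tumors. It had 0.0424, 0.128, and 0.254 CPM in the BNC lines, 7.86 CPM in JB87, and 205 and 217 CPM in JB84 and JB93, while the tumors held 32.9 to 118 CPM with a median of 86.9. Oas2 was at 0 counts in all BNC lines, at 0.305 CPM in JB87, and at 81.2 and 82.5 CPM in JB84 and JB93, with tumors from 6.89 over 24.2 to 68.3 CPM. The highest of these values came from B1. Oasl1, which represses translation of Irf7, had 0, 0, and 0.102 CPM in the BNC lines, 7.02 CPM in JB87, and 40.1 and 50.2 CPM in JB84 and JB93, with tumors from 2.33 over 9.44 to 22.9 CPM. Per kilobase, Oas1a was the lowest of the named OAS genes in the high lines (9.26 CPM per kilobase). It had 0, 0.0428, and 0 CPM in the BNC lines, 2.67 CPM in JB87, 17.8 and 17.1 CPM in JB84 and JB93, and 3.31 over 16.5 to 26.2 CPM in the tumors, which overlapped the high lines. Of the 65-base stretches of Oas1a transcripts, 51.0% also occur in Oas1g. Reads from these stretches fit both genes and would be lost, so the level of Oas1a may be too low. Oas1a, Oas2, and Oas3 lie together on chr5:120730333-120907521.

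The regulators include the factors that carry the signal and the ISG15 system, in which Isg15 encodes a ubiquitin-like tag and Usp18 the enzyme that removes it and blocks the type I receptor. Isg15 stood at 0.212, 0.257, and 0.102 CPM in JB81, JB91, and JB97, at 2.21 CPM in JB87, and at 139 and 153 CPM in JB84 and JB93. Divided by the exon length in kilobases, its mean level over JB84 and JB93 was 193 CPM per kilobase, and among the 48 genes only Bst2 was higher (269 CPM per kilobase). In the tumors it ran from 5.47 over 31.7 to 76.4 CPM, below the high lines throughout. Usp18 stood at 0.0424, 0.0856, and 0 CPM in the BNC lines, at 0.687 CPM in JB87, and at 81.6 and 87.2 CPM in JB84 and JB93, with tumors from 2.88 over 14.8 to 40.5 CPM. It had the largest difference of the class, 5.66 against JB87 on the log2 scale. Irf7 encodes the factor that amplifies type I interferon production. It stood at 0.593, 0.727, and 0.406 CPM in the BNC lines, at 3.13 CPM in JB87, and at 108 and 122 CPM in JB84 and JB93. Its tumor values ran from 17.0 over 50.8 to 273 CPM, with the highest again from B1, and 3 tumors exceeded both high lines. Ifi35 showed the smallest difference of the class (1.28), with 10.0, 11.0, and 11.9 CPM in the BNC lines, 22.1 CPM in JB87, 51.4 and 58.6 CPM in JB84 and JB93, and 20.4 over 38.8 to 77.1 CPM in the tumors. Every regulator had all 9 tumors above all BNC lines (11 of 11), and the tumor median lay below both high lines in 10, with Trim30a as the exception.

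Among the effectors, Bst2 encodes tetherin, which holds budding virus at the cell surface. It stood at 0.975, 0.856, and 1.42 CPM in JB81, JB91, and JB97, at 23.4 CPM in JB87, and at 246 and 239 CPM in JB84 and JB93, with tumors from 36.3 over 88.3 to 184 CPM. JB87 was thus well above the BNC lines for this gene, and all tumors were above JB87. Ifi27 stood at 16.3, 16.6, and 3.30 CPM in the BNC lines, at 22.9 CPM in JB87, at 171 and 179 CPM in JB84 and JB93, and at 52.7 over 100.5 to 157 CPM in the tumors. Ifit1 and Ifit3 encode proteins that bind viral RNA. Ifit3 had 0.339, 0.642, and 0.254 CPM in the BNC lines, 0.611 CPM in JB87, and 113 and 119.8 CPM in JB84 and JB93. Its difference of 6.16 from the highest other line was the largest of all 48 genes, and JB87 lay within the BNC range. Ifit1 had 0.0424, 0.214, and 0.305 CPM in the BNC lines, 3.59 CPM in JB87, and 171 and 173 CPM in JB84 and JB93. In the tumors Ifit3 ran from 2.83 over 11.8 to 56.7 CPM and Ifit1 from 6.10 over 17.2 to 70.8 CPM, and no tumor reached JB84 or JB93 for either gene. Of the 65-base stretches of its near-copy Ifit3b, 39.1% also occur in Ifit3, so the levels of both genes are uncertain. Isg20, an RNA exonuclease gene, had the smallest difference of the 48 genes between the mean of JB84 and JB93 and the highest other line (0.55, log2 scale). It stood at 20.3, 23.7, and 18.1 CPM in the BNC lines, at 8.93 CPM in JB87, below all of them, and at 31.7 and 38.9 CPM in JB84 and JB93, with tumors from 8.45 over 32.4 to 67.9 CPM. Ifit2, singled out after its values were seen, was the member with substantial BNC levels next to silent neighbours. On chr19:34550694-34650009, which holds it with Ifit3 and Ifit1, Ifit2 stood at 46.5, 45.6, and 27.9 CPM in the BNC lines, at 29.5 CPM in JB87, and at 94.0 and 88.1 CPM in JB84 and JB93. Only 1 of 9 tumors, B28 (51.3 CPM), exceeded the highest BNC line for Ifit2, and the other tumors were all below the lowest BNC line.

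The GTPases include the guanylate-binding proteins (GBP), the immunity-related GTPases (IRG), families that interferon-γ induces strongly, and the Mx proteins, which block viral nucleocapsids. Igtp (Irgm3) had 0.254, 0.0856, and 0.152 CPM in JB81, JB91, and JB97, 1.91 CPM in JB87, and 74.3 and 77.0 CPM in JB84 and JB93, with tumors from 15.6 over 44.0 to 169 CPM. Irgm2 had 0.127, 0.342, and 0.508 CPM in the BNC lines, 4.35 CPM in JB87, and 109 and 114 CPM in JB84 and JB93, with tumors from 27.8 over 51.0 to 84.1 CPM. Igtp and Irgm2 overlap on chromosome 11, and 9.28% of read-length stretches of Igtp also occur in Irgm2. Irgm1 was expressed in all lines. It stood at 24.6, 25.4, and 54.8 CPM in the BNC lines, at 36.3 CPM in JB87, within their range, and at 208 and 213 CPM in JB84 and JB93, with tumors from 29.1 over 60.0 to 140.1 CPM. Gbp2 had 0.212, 0.471, and 3.35 CPM in the BNC lines, 3.74 CPM in JB87, and 53.8 and 54.3 CPM in JB84 and JB93. In the tumors it ran from 35.3 over 91.9 to 348 CPM, and its median tumor level was 0.76 above the high lines on the log2 scale. Ifi47 had 1.31, 1.54, and 1.83 CPM in the BNC lines, 8.78 CPM in JB87, 33.9 and 31.6 CPM in JB84 and JB93, and 14.3 over 44.3 to 96.1 CPM in the tumors. For Gbp2 and Ifi47, as for every other GTPase except Irgm1 and Irgm2, the tumor range enclosed both high lines. Gbp2, Gbp3, and Gbp7 lie together on chr3:142530342-142638008.

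The tumors expressed the whole set. Every one of the 48 genes had more than 3 counts in every tumor, and all 9 tumors were above all 3 BNC lines in 43 of the 48 genes. Of all 15688 genes with more than 3 counts in at least 5 tumors, 25.4% showed this pattern. The exceptions were Eif2ak2, Ifit2, Isg20, Samd9l, and Irgm1, all of them expressed in the BNC lines. The median tumor level was above the mean of the BNC lines by 3.53 on the log2(CPM + 1) scale (median over the 48 genes; 3.31 without B1), against 0.17 for all genes. As genes with low BNC levels were chosen, this difference depends in part on the choice. In bulk samples, fewer cells of a type and less RNA per cell cannot be told apart, and the tumors held other cells than the lines. The leukocyte marker Ptprc had at most 0.0763 CPM in any line and 74.3 to 222 CPM in the tumors. The 12 markers of leukocytes, B cells, T and NK cells, macrophages, and plasmacytoid dendritic cells summed to 4.26 to 6.50 CPM in the lines, 4.53 and 5.03 of them in JB84 and JB93, and to 568 to 2004 CPM in the tumors. Of these 12, 9 had at most 3 counts in both JB84 and JB93, Ptprc, Cd3e, Cd3g, Adgre1, Csf1r, and Siglech among them. The macrophage marker Cd68 had 42 to 91 counts in every line. The B cell receptor genes Cd79a and Cd79b moved with the pattern, with 12 and 6 counts in JB84, 11 and 6 in JB93, and at most 4 and 0 in the other lines. The part of leukocytes in these levels was not tested. The lines differed in mesothelial markers as well. Msln stood at 0.212 and 0.428 CPM in JB81 and JB91, at 227 CPM in JB97, and at 835 to 2041 CPM in the NC lines, and Krt8, Krt18, and Pdpn had at most 0.556 CPM in JB81 and JB91, while Wt1 was expressed in all 6 lines, between 72.9 and 127 CPM. Vim, the intermediate filament gene of mesenchymal cells, separated the high pair from the rest in the opposite direction, with 12240, 12440, and 4369 CPM in JB81, JB91, and JB97, 4207 CPM in JB87, and 1220 and 1274 CPM in JB84 and JB93.

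Relative to JB84 and JB93, the GTPases had the highest class median in the tumors, although the values of single genes overlapped widely between classes. The difference between classes was not tested. The median difference between the tumor median and the mean of these lines was 0.06 for the GTPases, -1.16 for the regulators, -1.49 for the OAS family, -1.52 for the effectors, and -1.55 for the sensors, against 0.17 for all genes. All 9 tumors were below both lines in 31 of the 48 genes, 2 of them among the 10 GTPases, against 18.7% of all 15688 genes. As genes high in these lines were chosen, tumors below them follow in part from the choice. The tumor median exceeded both lines in 9 genes. Of these, 5 were GTPases, Gbp2, Gbp7, Iigp1, Ifi47, and Mx1, and the others were Zbp1, Trim30a, Ifi27l2a, and Lgals3bp. Ifi27l2a showed the largest excess (1.95), with 13.6 and 16.3 CPM in JB84 and JB93 and a tumor median of 60.7 CPM. Its highest tumor value was 528 CPM, in B1. Mx1 stood at 3.08 and 3.48 CPM in JB84 and JB93, the lowest level of the set there per kilobase, and at 1.67 over 13.4 to 50.3 CPM in the tumors. These GTPases and effectors were named after their values were seen.

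**Figure D3:**
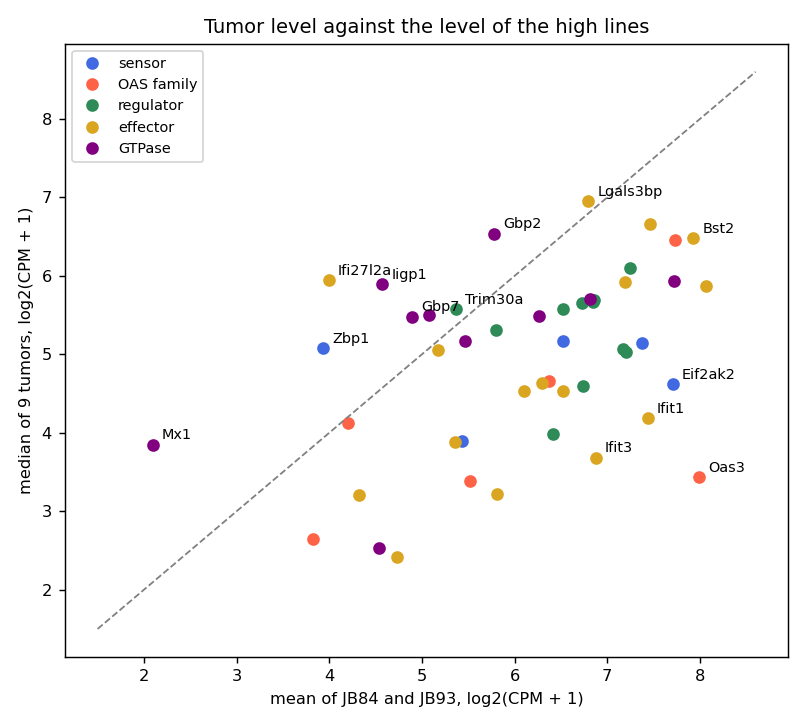
Median level of the 9 tumors (vertical axis) against the mean level of JB84 and JB93 (horizontal axis), both log2(CPM + 1), with 1 point per gene colored by class and a dashed line where both are equal. The GTPases straddle the line with a median difference of 0.06, and Oas3 lies farthest below it, at -4.56.

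The tumors also differed from each other, a comparison that the rule for choosing the genes did not use. Earlier results of these data were known when the genes were chosen. The score was lowest in B45 (3.96) and in the tumor without a B code (4.18), and highest in B28 and B2 (both 5.53), with a median of 5.05 over the 9 tumors and 5.01 without B1. B28 had the highest level in 16 of the 48 genes (19.8% of all genes were highest in B28), B2 in 14 (10.7%), and B27 in 11 (14.3%). B45 had the lowest level in 25 (15.6%), the tumor without a B code in 12 (8.03%), and B27 in 7 (12.1%). For a typical gene the tumors spanned 2.29 on the log2 scale, against 1.69 for all genes. With 1 library per tumor and no genotype, no test was made. B2 held the most Scgb1a1. B45 held the most Myh4 (12023 CPM, against 6257 in B19 and 1377 in B1), but another skeletal muscle gene, Acta1, was higher in B1 (19849 CPM) and B19 (16144 CPM) than in B45 (13493 CPM), and the scores of B1 and B19 were above the tumor median. The part of admixed muscle and lung in these ranks was not tested.

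B27 was the highest tumor for some genes and the lowest for others. It was highest for 6 of the 10 GTPases (Gbp2, Gbp3, Igtp, Irgm1, Irgm2, and Ifi47), and also for Oas3, Irf9, Isg15, Parp14, and Bst2. These were 11 of the 48 genes, against 14.3% of all genes. It was lowest for Ifit2, Ifit3, Eif2ak2, Ifih1, Samd9l, Ifi27l2a, and Mx1. These were 7 of the 48 genes, near the 12.1% of all genes that were lowest in B27. Averaged over the 4 IFIT genes, B27 had a log2(CPM + 1) of 2.14, the lowest of the tumors, and averaged over the 8 GBP and IRG genes it had 6.79, the highest. B28 was high for both, with 5.38 for the IFIT genes and 6.14 for the GTPases. In JB84 and JB93 the IFIT mean was above the GTPase mean, by 0.56 and 0.57, whereas in all 9 tumors it was below, by between 0.61 (B1) and 4.64 (B27). The excess was not particular to the high lines. The IFIT mean minus the GTPase mean was 0.643 in JB81, 0.745 in JB91, -0.0059 in JB97, and -0.198 in JB87. The pair of families was chosen after the values were seen. B27 was also the tumor with the most Ifng, 48 counts (2.23 CPM), against 0 to 14 counts in the others. It further had the highest level of the interferon-γ-responsive factor gene Irf1, 359 CPM against 36.1 to 132 CPM in the others, and of the inhibitor gene Socs1 (37.1 CPM against 2.08 to 10.8 CPM). The summed markers of T and NK cells reached 162 CPM in B27 and 2.54 to 52.5 CPM in the other tumors. In B27 the sum held Cd3e at 46.8 CPM and Cd3g at 113 CPM, each the highest of the tumors. The remaining marker, Nkg7, stood at only 2.18 CPM in B27, below the tumor median of 2.29 CPM. Whether these values are related to the levels of the families was not tested.

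**Figure D4:**
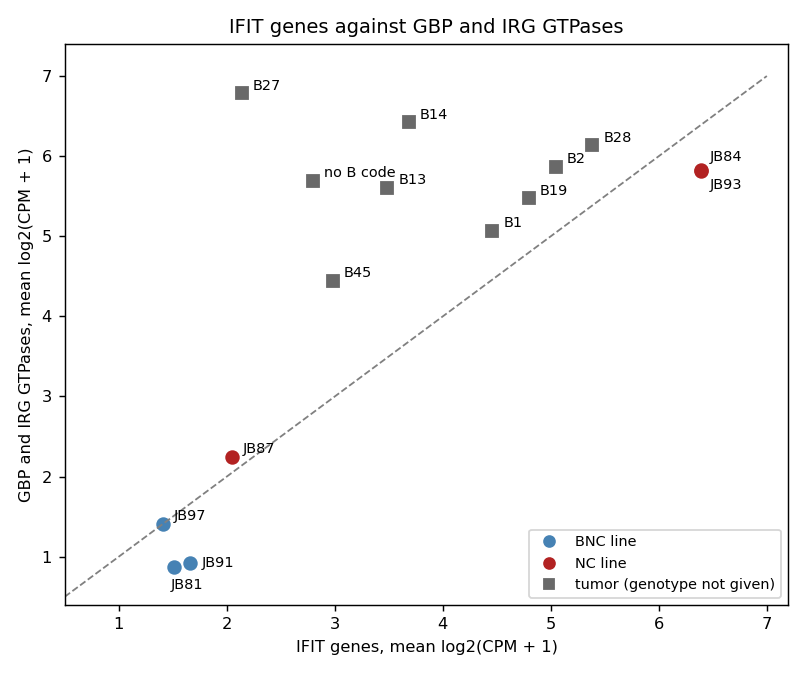
Mean log2(CPM + 1) of the 8 GBP and IRG GTPases (vertical axis) against that of the 4 IFIT genes (horizontal axis) in the 3 BNC lines, the 3 NC lines, and the 9 tumors, with 1 point per library and a dashed line where both are equal. All tumors lie above the line, B27 farthest at 2.14 and 6.79. JB84, JB93, JB81, and JB91 lie below it, JB97 lies almost on it, and JB87 lies slightly above it.

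The other genes of the pathway were examined to see whether ligands, receptors, or signaling factors differed along with the 48 genes. Of 53 listed genes, 46 were in the table by symbol and 37 had enough counts for the fit. None passed an adjusted p of 0.01 with a 2-fold change in the edgeR quasi-likelihood test, against 1.10% of all tested genes. An unadjusted p under 0.05 (edgeR) was reached by 14, against 35.6% of all tested genes. Of these 14, 13 were lower and 1 higher in BNC, against 19.7% lower and 15.9% higher among all tested genes. DESeq2 placed 7 past the threshold, all lower in BNC, against 15.1% in either direction and 9.13% lower. With JB81 and JB91 summed and JB84 and JB93 summed, 5 had an unadjusted p under 0.05, against 11.7% of all tested genes. At an adjusted p of 0.05 with a 2-fold change, 3 genes were lower in BNC and 0 higher, against 7.34 and 4.26% of all tested genes. The median log2 fold change of the 37 genes was -0.22, against -0.0023 for all tested genes. By class it was 0.066 for receptors, -0.417 for kinases and factors, -0.408 for nucleic acid sensing, and 0.162 for inhibitors and nucleases.

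Of the 13 listed interferon genes, 7 were found by symbol, and these had at most 1 count in any line. Ifnb1, Ifna4, Ifnab, Ifnk, Ifnz, and Ifng had 0 counts in all 6 lines, and Ifne had 1 count each in JB84 and JB93. A count of 0 allows up to 0.189 CPM in JB84 and 0.137 CPM in JB93 at 3 counts. The tumors had at most 3 counts of Ifnb1, and more than 3 counts of Ifng in 6 of 9. Ifna1, Ifna2, Ifna5, Ifna12, Ifnl2, and Ifnl3 were listed but not found by symbol, and other interferon-α genes were not analysed here. The receptors for type I interferon were expressed in all lines at overlapping levels. Ifnar1 ranged from 51.2 to 70.7 CPM and Ifnar2 from 14.8 to 16.2 CPM over the 6 lines, with fold changes of 0.19 ± 0.17 and -0.02 ± 0.16 (log2, ± SE, adjusted p = 0.439 and 0.939, edgeR). The γ receptor gene Ifngr1 had 22.8, 23.8, and 39.9 CPM in JB81, JB91, and JB97 and 58.3, 36.6, and 60.6 CPM in JB84, JB87, and JB93, a difference that missed the threshold (adjusted p = 0.0915, edgeR). The λ receptor gene Ifnlr1 was lower in BNC, with 0.339, 0.642, and 0.102 CPM against 2.45, 2.21, and 2.52 CPM in JB84, JB87, and JB93, a log2 fold change of -2.74 ± 0.62 (adjusted p = 0.0400, edgeR).

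Among the kinases and factors, Irf1 did not follow the pattern of the 48 genes. The highest line was JB87 with 43.6 CPM, above JB84 and JB93 (32.5 and 31.7 CPM) and above JB81, JB91, and JB97 (12.6, 15.5, and 29.6 CPM), with a log2 fold change of -0.96 ± 0.35 (adjusted p = 0.108, edgeR). In nucleic acid sensing, Trim25, the ubiquitin ligase of the RIG-I pathway, had 0.339, 0.813, and 8.68 CPM in the BNC lines, 75.1 CPM in JB87, and 298 and 311 CPM in JB84 and JB93. This was the largest difference of the list, with a log2 fold change of -6.20 ± 1.41 (adjusted p = 0.0400, edgeR), and the groups did not overlap. Tlr3, the endosomal receptor for double-stranded RNA, had 7.42, 7.57, and 6.45 CPM in the BNC lines and 27.9, 12.3, and 24.7 CPM in JB84, JB87, and JB93 (-1.65 ± 0.34, adjusted p = 0.0325, edgeR). The adaptor gene Myd88 was lower in BNC by less than 2-fold (-0.98 ± 0.17, adjusted p = 0.0216, edgeR), with 18.6, 18.4, and 22.9 CPM against 38.8, 32.5, and 42.2 CPM. For these genes the result rests on which lines entered the fit. The fit also counted the almost alike pairs as separate lines, so the standard errors and p-values may be too small. Without JB87, 7 of the 37 pathway genes passed the study's threshold, against 19.7% of all genes tested in that fit. Of these 7 pathway genes, 5 were lower in BNC, against 9.76% of all genes in that fit called lower. Without JB97, 3 passed, all lower, against 7.57% of all genes and 4.31% lower in BNC, and without any of the other lines 0 did. In either direction these counts were near the shares of all genes. More pathway genes were called lower than higher in BNC, and whether this is particular to the pathway was not tested.

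**Figure D5:**
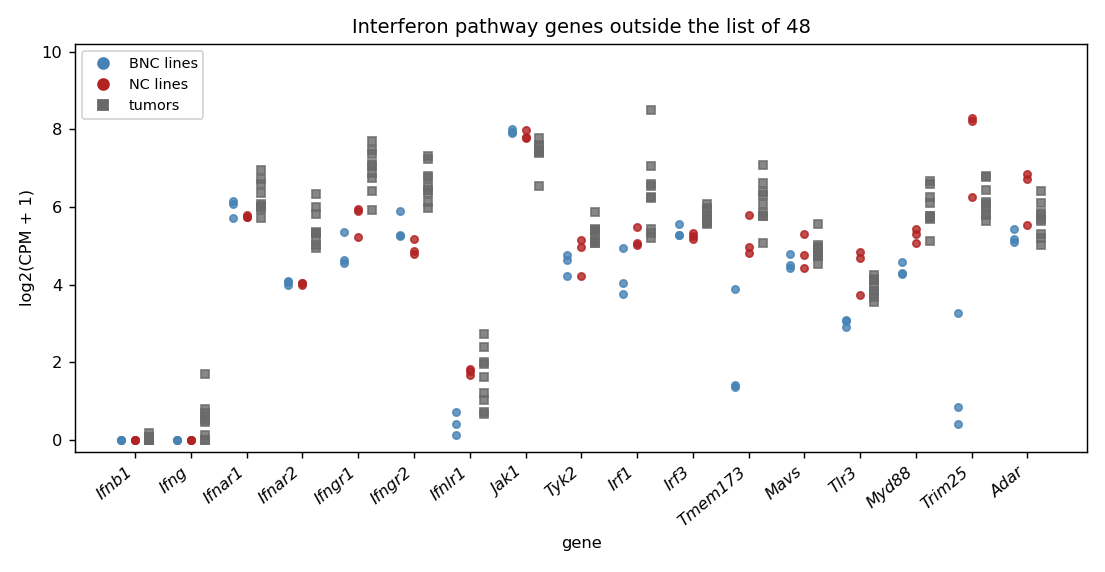
Level of 17 interferon pathway genes outside the list of 48, on the log2(CPM + 1) scale, with 1 point per library for the 3 BNC lines, the 3 NC lines, and the 9 tumors. Ifnb1 and Ifng lie at 0 in all lines, the points of Ifnar1 and Ifnar2 overlap between the line groups, and Trim25 spans from 0.339 CPM in JB81 to 311 CPM in JB93.

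Genes outside both lists with the most similar pattern were ranked by the Pearson correlation of their log2(CPM + 1) with the score over the 15 libraries, among genes that reached a level of 3 on that scale. The libraries share the contrast between the low lines and the rest, so the correlation mostly reflects that contrast. The highest were Parp12 (0.97), Ifi203 (0.96), Gramd3 (0.96), Trim21 (0.96), Rnd2 (0.95), Phf11d (0.95), Coro2a (0.95), Porcn (0.95), Tmem71 (0.95), and Ddx60 (0.94). Within the 9 tumors alone the correlation stayed at 0.84 for Parp12 and 0.69 for Phf11d and was between 0.30 and 0.59 for the other 8. Parp12 had 8.39, 8.90, and 8.17 CPM in JB81, JB91, and JB97, 29.4 CPM in JB87, 117 and 117 CPM in JB84 and JB93, and 32.2 over 57.2 to 71.1 CPM in the tumors.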

How the data were processed

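Poly-A–enriched RNA of 6 mesothelioma lines and 9 tumors was sequenced as 65-base single reads. The authors deposited unnormalized counts for each Ensembl gene. Per the labels and the study's methods, they aligned to mm10 with TopHat2 2.0.12, dropped low-quality and nonprimary alignments, and counted with HTSeq. Reads that fit several genes are therefore lost, and the strand setting is not given in the sources used here, so antisense and near-identical genes are uncertain.

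Line columns were assigned by the line names in the heads of the study's gene table. The tumor columns, which share the naming of the tumor DNA samples, were kept as 1 set without genotype. Not used here were 14 columns of DNA copy number and the chromatin data. Of the genes, 98.5% matched a symbol.

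The 48 genes, their classes, and all lists were chosen with earlier results of these data known. Levels are CPM on TMM library sizes over 15 libraries (edgeR 4.0.16, R 4.3.3). Differences are on log2(CPM + 1), which understates changes of low genes. Levels per length use GENCODE M21 exon lengths. BNC and NC lines were compared over all genes with at least 10 counts in enough libraries (filterByExpr), with edgeR's quasi-likelihood test and Benjamini-Hochberg adjustment. A call needs an adjusted p under 0.01 and over 2-fold change. The scripts were tested on simulated counts. DESeq2 1.42.0 (the study also used DESeq2), other filters, scalings, blocks, and leaving out each line served as alternatives. The genes shown with all values were, in each class, the 4 with the highest level per length over JB84 and JB93 and those with the largest and the smallest difference from the highest other line. A floor of 3 counts covers counting error only. Promoter sequences come from RefSeq on GRCm38.p6, the build of mm10. Motifs were searched in windows of 300 bases. Values of 2 listed genes are not reported here.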

Additional observations from a re-analysis of the deposited data

Results flagged for a closer look

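In the 9 tumors, 49 values were checked (the 48 genes and their score), on the log2(CPM + 1) scale. In 2 of them, the gap of an extreme library to the next, divided by the whole range, was above Dixon's 95% critical value. The ratios hold for that scale and would differ on the CPM values given below. Chance flags about 1 in 20 such sets. For Zbp1 the ratio was 0.571, with B45 at 8.90 CPM and the next tumor at 24.9 CPM. For Gbp3 the ratio was 0.529, with B45 at 14.2 CPM and the next tumor at 30.8 CPM. Both genes were lowest in B45. That library held the most Myh4 (12023 CPM), while another skeletal muscle gene, Acta1, was higher in B1 (19849 CPM) and B19 (16144 CPM) than in B45 (13493 CPM), and the part of admixed muscle in these values was not tested.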

How the results depend on the processing

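In edgeR's quasi-likelihood test, 136 genes were called between BNC and NC lines, 137 with library sizes alone, and 169 without a filter. The count was 1436 at an adjusted p of 0.05, 1846 with DESeq2, 83 with at least 10 counts in every line, 1 with the number at the head of the library name as a covariate, and 0 with JB81 and JB91 summed and JB84 and JB93 summed. Leaving out 1 line gave between 0 and 2574 calls, 2574 without JB87, 984 without JB97, and 0 or 1 without any other line. The replicate block gave 0 calls over all genes, 0 pathway genes, 0 of the 48 genes, and a median log2 fold change of -4.81. The numbers do not pair the lines, since same-numbered lines correlated at 0.101, -0.069, and -0.077. For the other pathway genes the count of 0 became 3 at an adjusted p of 0.05 and 7 with DESeq2, and ran from 0 to 7 when 1 line was left out. For the 48 genes the count of 0 became 28 at an adjusted p of 0.05, 39 with DESeq2, and 3 without a filter, and ran from 0 to 44 when 1 line was left out, 44 without JB87. Their median log2 fold change of -5.11 ran from -7.13 (without JB87) to -4.78 (without JB93) and kept its direction under every alternative run. These medians were not all taken over the same genes. The main fit and the fit without JB93 held 41 of the 48 genes, and the fit without JB87 held all 48. With every line kept and no filter, the median over the 48 was already -6.61. The range therefore mixes the change of genes with the change of lines. The difference between the lower of JB84 and JB93 and the highest other line in score, 3.54, ran from 2.70 to 3.78. The difference between the tumor median and the BNC lines, 3.53, fell to 2.10 with a pseudocount of 5. That pseudocount lowers differences of genes near 0 by construction, and the other causes were not tested. Depth sets the detection floor, from 0.127 CPM in JB81 to 0.773 CPM in B1.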
